A study of Mus musculus with 12 samples.

Results

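The genes described here are Trp53, which encodes the transcription factor p53, and 32 genes known as p53 targets or as parts of the cell death machinery. They were taken by symbol as a list of 33 genes from the 35856 rows of the expression table. All 33 were found, and all 33 were among the 15663 genes kept for testing, which reach 1 TPM or more in 2 libraries or more. TPM is the abundance of a transcript as a share of all transcripts in a library after scaling for transcript length. Dram1 passed this filter only through its SUZ12-AID libraries with auxin, so it had to be higher there. Its rise in that line is no support, although the counts for SUZ12-AID below include it.

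Polyadenylated RNA was sequenced from cardiac precursors, mesodermal cells that go on to form heart muscle, grown from C57BL/6 mouse embryonic stem cells. There were 3 cell lines, all with the plant protein Tir1, and each had an auxin-inducible degron (AID) on 1 subunit of Polycomb repressive complex 2, a histone methyltransferase that keeps developmental genes silent. SUZ12-AID carries the tag on a core subunit, and MTF2-AID and AID-JARID2 carry it on accessory subunits that belong to separate assemblies. Each line was either untreated or given 50 µM indole-3-acetic acid, an auxin with which Tir1 marks the tagged protein for degradation, and each of the 6 groups had 2 libraries. A line with Tir1 and no tag was not analysed here, so effects of auxin itself and of losing the subunit cannot be told apart, and the labels give 1 line per tag and no start of treatment. The labels number the replicates but do not say whether they were separate cultures, so p-values measure the spread between these libraries, which may be technical.

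The p53 protein is kept low by the ubiquitin ligase MDM2, whose own gene is a p53 target. After DNA damage and other stresses p53 is stabilised and binds DNA as a tetramer, and its targets then hold the cell cycle, repair DNA, limit oxidants or start death through mitochondria or receptors at the cell surface. Because p53 is regulated mainly as a protein, the RNA of its targets is a usual readout of its activity. Embryonic stem cells and their early descendants are known to hold much Trp53 RNA and to die readily.

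A p53 tetramer binds a pair of decamers, each made of 3 purines, C, a pair of A or T bases, G and 3 pyrimidines, a pattern that is its own reverse complement and so was read on both strands at once. The promoter of Cdkn1a is shown up to the gene start. Its window was the only one among these genes with a pair of exact decamers at most 13 bases apart. RefSeq promoter windows (GRCm38.p6, from 250 bases before to 50 bases after a start) were matched for 25 of the 33 genes. The stretch below is chr17:29090729-29090975 on the plus strand and ends at the base before the Cdkn1a start in GENCODE vM21, with the decamers in capitals at bases -70 to -61 and -48 to -39 from that start.
Cdkn1a: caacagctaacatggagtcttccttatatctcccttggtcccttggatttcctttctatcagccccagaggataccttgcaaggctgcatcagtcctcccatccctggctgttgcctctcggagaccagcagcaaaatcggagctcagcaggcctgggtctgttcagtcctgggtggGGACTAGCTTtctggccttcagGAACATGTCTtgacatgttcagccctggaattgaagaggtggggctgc
The 2 decamers are 12 bases apart, and the 10 bases after the second one, tgacatgttc, are 1 mismatch away from a decamer. Such a pair stood in 24 (0.073%) of 32851 RefSeq windows.

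At least 1 exact decamer lay in a window of 11 of the 25 genes with a window, against 9.55% of 27025 gene symbols. The sites of 6 of these genes, with their flanks, are shown because they let the reader see how closely such sites resemble each other. Capitals mark the decamer.
Mdm2: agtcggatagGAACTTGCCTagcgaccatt
Ccng1: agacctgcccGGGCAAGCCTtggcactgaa
Trp53: acccacggaaGGACTTGCCCttacttgtta
Gadd45a: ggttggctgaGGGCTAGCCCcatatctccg
Bax: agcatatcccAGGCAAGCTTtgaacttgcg
Ei24: cgtgcggcccGGGCATGCCC
The Mdm2 fragment is chr10:117710925-117710954 on the minus strand, and that of Ccng1 is chr11:40755452-40755481 on the minus strand. Those of Trp53 and Bax are chr11:69580274-69580303 on the plus strand and chr7:45467080-45467109 on the minus strand. Gadd45a and Ei24 have theirs at chr6:67037428-67037457 and chr9:36797335-36797354, both on the minus strand. The other 5 genes with a decamer were Aen, Rps27l, Sesn1, Polk and Cdkn1a itself. A match describes letters in a window and no binding was measured, and many p53 sites lie in introns or farther upstream than these windows reach.

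The libraries held 10138920 to 17173072 reads, as recovered from the steps of the TPM values. Folds below are on the scale of log2(TPM + 1), which understates changes of weakly expressed genes, and a gene is said to have changed where limma gave a Benjamini-Hochberg adjusted p under 0.05 over all 15663 genes. RNA of the tagged genes does not measure the degraded protein. Suz12 had 113 and 127 TPM untreated and 106 and 109 TPM with auxin in SUZ12-AID (log2 fold change -0.15, SE 0.071, adjusted p = 0.179). Mtf2 had 22.4 and 21.7 TPM untreated and 26 and 24.7 TPM with auxin in MTF2-AID (log2 fold change 0.19, SE 0.10, adjusted p = 0.627). Jarid2 rose in AID-JARID2, with 45.3 and 43.5 TPM untreated and 104 and 113 TPM with auxin (log2 fold change 1.27, SE 0.12, adjusted p = 2.17e-05).

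Markers of cell identity changed with auxin in all 3 lines, with 2 of them passing the test in MTF2-AID. Beside the marker counts, 15.1% of all genes tested rose and 4.05% fell in SUZ12-AID. In AID-JARID2 19.5% rose and 17% fell, and in MTF2-AID 0.0447% rose and 0.0192% fell. Of 11 cardiac precursor markers tested, 10 fell in AID-JARID2, where their summed level (12 markers) was 2784 and 2701 TPM untreated and 489.9 and 418 TPM with auxin, with 1 marker at 0 in 1 library. All 10 pluripotent cell markers rose there, from sums of 796 and 788 to 3294 and 3341 TPM, and none of them was at 0 in any library of the series. In SUZ12-AID, 5 cardiac precursor markers rose and 1, Hand1, fell, with sums of 2629 and 2944 TPM untreated and 1625 and 1540.3 with auxin, while 7 pluripotent, 11 of 12 epithelial and 8 of 10 endothelial markers rose. Pluripotent sums there were 203 and 181 TPM untreated and 339 and 409.7 with auxin, and epithelial sums were 2630.4 and 2504 TPM untreated and 4227 and 4698 with auxin. Of 8 blood markers 5 fell there, with sums of 72.8 and 64 TPM untreated and 27.5 and 26.2 with auxin.

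In MTF2-AID none of the cardiac precursor and pluripotent markers passed the test (1 and 2 higher at an unadjusted p under 0.05), and their sums stayed between 1719 and 1772 TPM and between 228 and 248 TPM. The 10 endothelial markers were all lower in both auxin libraries than in both untreated ones, as were 21.8% of all genes tested. Their median log2 fold change was -0.73, and 0 passed with limma, while 9 were lower at an unadjusted p under 0.05. Endothelial sums were 232 and 228 TPM untreated and 169 and 159 with auxin. Of 8 blood markers Itga2b, an integrin of platelets and their precursors, fell (0.506-fold, adjusted p = 0.0134), with 5 of the 8 lower at an unadjusted p under 0.05 and a median log2 fold change of -0.92. Blood sums were 37.6 and 32.8 TPM untreated and 17.7 and 12.5 with auxin. The epithelial keratin gene Krt8 rose (1.31-fold, adjusted p = 0.00783), and epithelial sums were 1693 and 1660.2 TPM untreated and 2029 and 2042 with auxin. The part of these shifts in the results below was not tested. In bulk RNA, fewer cells of a type and less RNA per cell cannot be told apart.

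Most p53 targets rose when auxin was given to SUZ12-AID or AID-JARID2 cells, and hardly any passed the test in MTF2-AID. In SUZ12-AID 24 of the 33 genes rose and 0 fell, where 15.1% of all genes tested rose and 4.05% fell. Dram1 is among the 24, and the filter had fixed its direction there. In AID-JARID2 23 rose and 3 fell, where 19.5% of all genes rose and 17% fell. In MTF2-AID 0 rose and 1, Cdkn1a, fell, where 0.0447% of all genes rose and 0.0192% fell. The median log2 fold change of the 33 genes was 0.66 in SUZ12-AID, 0.55 in AID-JARID2 and -0.16 in MTF2-AID, beside 0.06, 0.01 and 0.01 over all genes. At an unadjusted p under 0.05, limma gave 27 higher and 0 lower in SUZ12-AID, 23 and 3 in AID-JARID2, and 0 and 11 in MTF2-AID. No share over all genes was computed at that unadjusted threshold. These counts, and the other unadjusted ones in this report, therefore have no background to be read against.

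**Figure D1:**
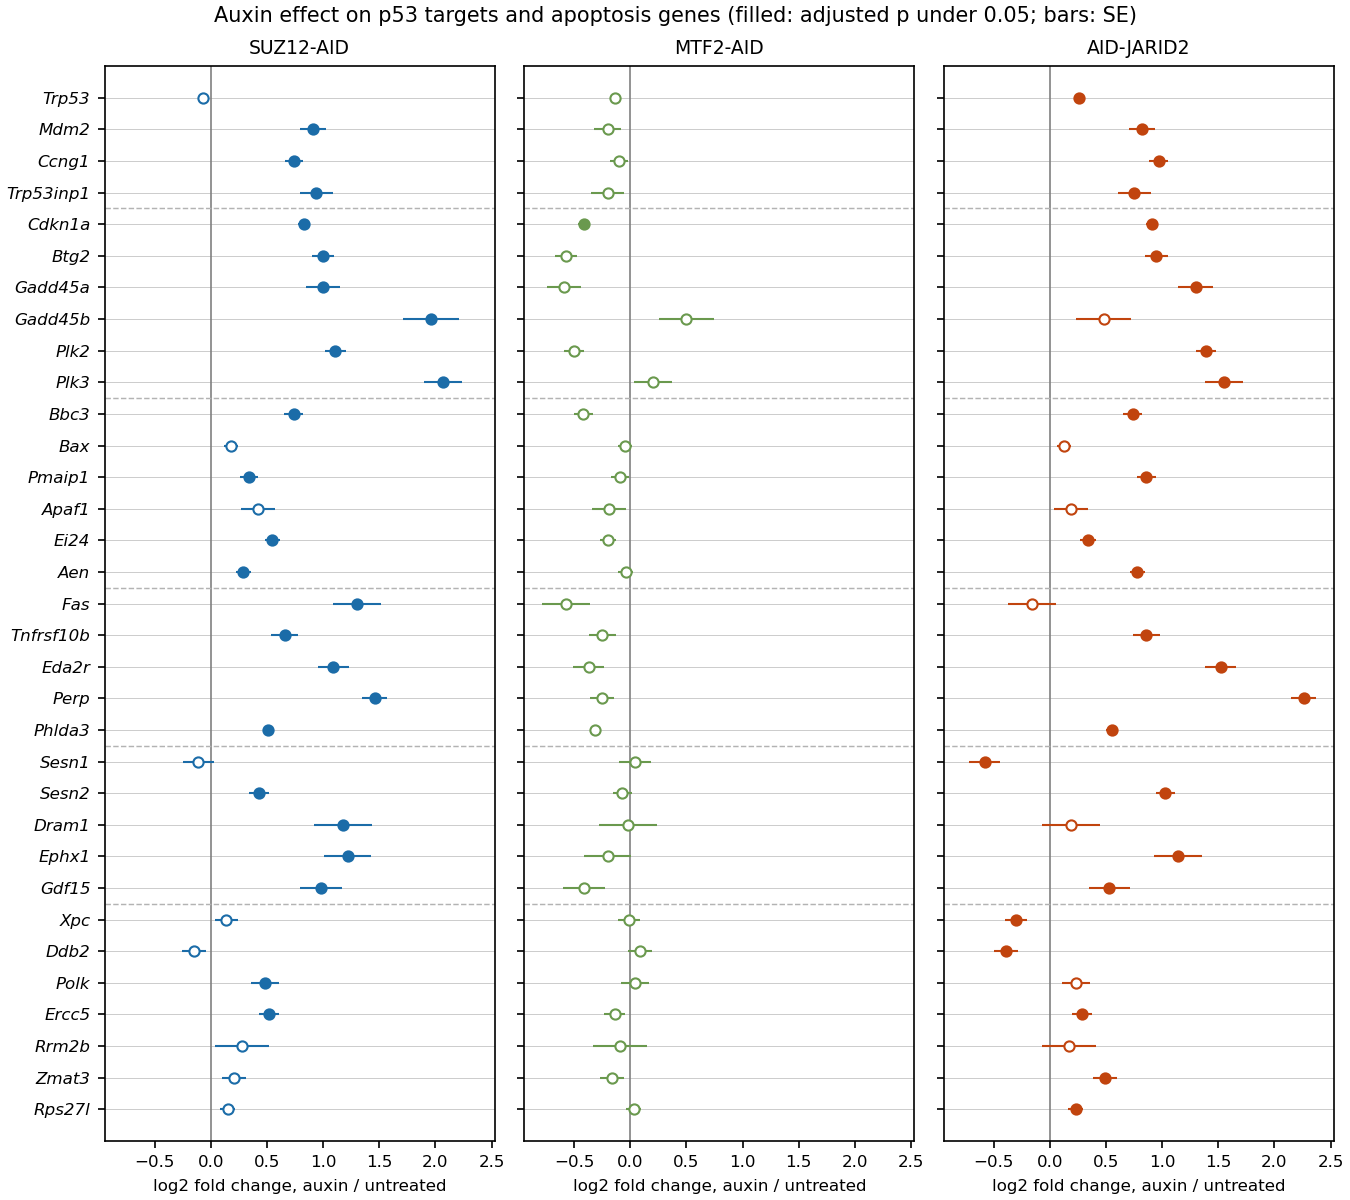
Log2 fold change of each of the 33 genes with auxin (x axis, log2 of TPM + 1) in the 3 lines, grouped by role between dashed lines, with bars for the SE and filled points for an adjusted p under 0.05. Filled points lie to the right of 0 for 24 genes in SUZ12-AID and 23 in AID-JARID2, and to the left for 1 in MTF2-AID and 3 in AID-JARID2.

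The summed level of the 33 genes gives the size in TPM. It was 2362 and 2442 TPM untreated and 3330.3 and 3598 with auxin in SUZ12-AID, and 1782 and 1809 TPM untreated and 2695 and 2734 with auxin in AID-JARID2. In MTF2-AID it was 2497 and 2442 TPM untreated and 2219 and 2187 with auxin. Both auxin sums lay above both untreated sums in the first 2 lines and below them in MTF2-AID. Counting single genes the same way, both auxin libraries lay above both untreated ones for 28 genes in SUZ12-AID and 27 in AID-JARID2 (34% and 37.7% of all genes), and below them for 1 and 4 (15.3% and 35%). In MTF2-AID 3 genes lay above and 21 below (24.1% and 21.8%).

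Of the 24 genes that rose in SUZ12-AID (83.3% of them) and the 23 that rose in AID-JARID2 (87%), 20 were shared. These were Cdkn1a, Mdm2, Perp, Bbc3, Pmaip1, Ccng1, Sesn2, Trp53inp1, Phlda3, Eda2r, Aen, Btg2, Gadd45a, Ei24, Tnfrsf10b, Plk2, Plk3, Gdf15, Ephx1 and Ercc5. Fas, Gadd45b, Polk and Dram1 rose in SUZ12-AID and did not pass in AID-JARID2, and Trp53, Zmat3 and Rps27l the other way round. Across the 33 genes, which are not independent replicates, the log2 fold changes of SUZ12-AID and AID-JARID2 had r = 0.61 (0.3 over all genes), and those of MTF2-AID had r = -0.08 with SUZ12-AID and -0.31 with AID-JARID2. Bax, Rrm2b and Apaf1 passed in no line. The replicates of SUZ12-AID varied more than those of the other lines, and with the 4 libraries of that line alone, which leaves few degrees of freedom, 4 genes (Cdkn1a, Perp, Plk2 and Plk3) passed in place of 24. AID-JARID2 had 22 to 24 genes higher in all settings other than the removal of a library, its own 4 libraries alone among them.

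Trp53 itself was the most abundant of these RNAs per length in every group except SUZ12-AID with auxin, where Ccng1 and Phlda3 were above it. It had 314 and 322 TPM untreated and 309.8 and 297 TPM with auxin in SUZ12-AID (log2 fold change -0.07, SE 0.040, adjusted p = 0.274). In MTF2-AID it had 361 and 351 TPM untreated and 321 and 325 TPM with auxin (log2 fold change -0.14, SE 0.040, adjusted p = 0.238), and in AID-JARID2 343 and 342 TPM untreated and 414 and 409 TPM with auxin (log2 fold change 0.26, SE 0.040, adjusted p = 0.000543). Both auxin libraries thus lay below both untreated ones in SUZ12-AID and MTF2-AID without passing the test, and above them in AID-JARID2, where Trp53 rose 1.2-fold. In SUZ12-AID 24 of the 33 genes rose while Trp53 RNA did not pass the test. The gene spans chr11:69580359-69591873 on the plus strand of mm10.

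The feedback regulators of p53 rose in both of these lines. Mdm2, the ligase that removes p53, had 39.9 and 47.3 TPM untreated and 73.8 and 92 TPM with auxin in SUZ12-AID (1.88-fold, log2 fold change 0.91, SE 0.12, adjusted p = 0.000795). In AID-JARID2 it had 25.4 and 27.6 TPM untreated and 44.9 and 50.2 TPM with auxin (1.76-fold, log2 fold change 0.82, SE 0.12, adjusted p = 0.000454). Auxin libraries were above untreated ones in each, although the auxin levels of AID-JARID2 overlapped the untreated levels of SUZ12-AID. In MTF2-AID Mdm2 had 48.4 and 43.1 TPM untreated and 40 and 39.2 TPM with auxin (log2 fold change -0.20, SE 0.12, adjusted p = 0.664), lower in both auxin libraries and short of the threshold. Ccng1, which encodes cyclin G1, a partner of a phosphatase that acts on MDM2, had 209 and 249.9 TPM untreated and 364 and 402 TPM with auxin in SUZ12-AID (log2 fold change 0.74, SE 0.083, adjusted p = 0.000341) and 145 and 155 TPM untreated and 287 and 304 TPM with auxin in AID-JARID2 (log2 fold change 0.97, SE 0.083, adjusted p = 1.17e-05). Its near doubling in AID-JARID2 left no overlap between the groups. Trp53inp1, a nuclear protein that promotes p53 phosphorylation, rose 1.91-fold in SUZ12-AID (adjusted p = 0.00201) and 1.68-fold in AID-JARID2 (adjusted p = 0.0028).

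All 6 growth arrest and checkpoint genes rose in SUZ12-AID and 5 of the 6 in AID-JARID2. Beside the counts of this and the following roles, 15.1% of all genes rose in SUZ12-AID and 19.5% in AID-JARID2. Cdkn1a encodes p21, the inhibitor of cyclin-dependent kinases through which p53 holds cells in G1. It had 150.5 and 141 TPM untreated and 255 and 265 TPM with auxin in SUZ12-AID (1.78-fold, log2 fold change 0.83, SE 0.055, adjusted p = 3.11e-05). In AID-JARID2 it had 74 and 71.7 TPM untreated and 139 and 137 TPM with auxin (1.88-fold, log2 fold change 0.91, SE 0.055, adjusted p = 9.39e-07). The replicates of each AID-JARID2 group were within a few TPM of each other and those of SUZ12-AID lay farther apart. Untreated and auxin groups were well separated in both lines. MTF2-AID moved the other way, with 153 and 153 TPM untreated and 111 and 119 TPM with auxin (0.754-fold, log2 fold change -0.41, SE 0.055, adjusted p = 0.0384). That call was lost in 12 of 21 alternative settings, among them the removal of any 1 library of MTF2-AID (adjusted p = 0.093 to 0.202) or of AID-JARID2 (0.0915 to 0.0948). With auxin, AID-JARID2 cells held less Cdkn1a RNA than untreated SUZ12-AID or MTF2-AID cells did. The gene lies at chr17:29090976-29100727 on the plus strand of mm10, directly after the promoter printed above.

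**Figure D2:**
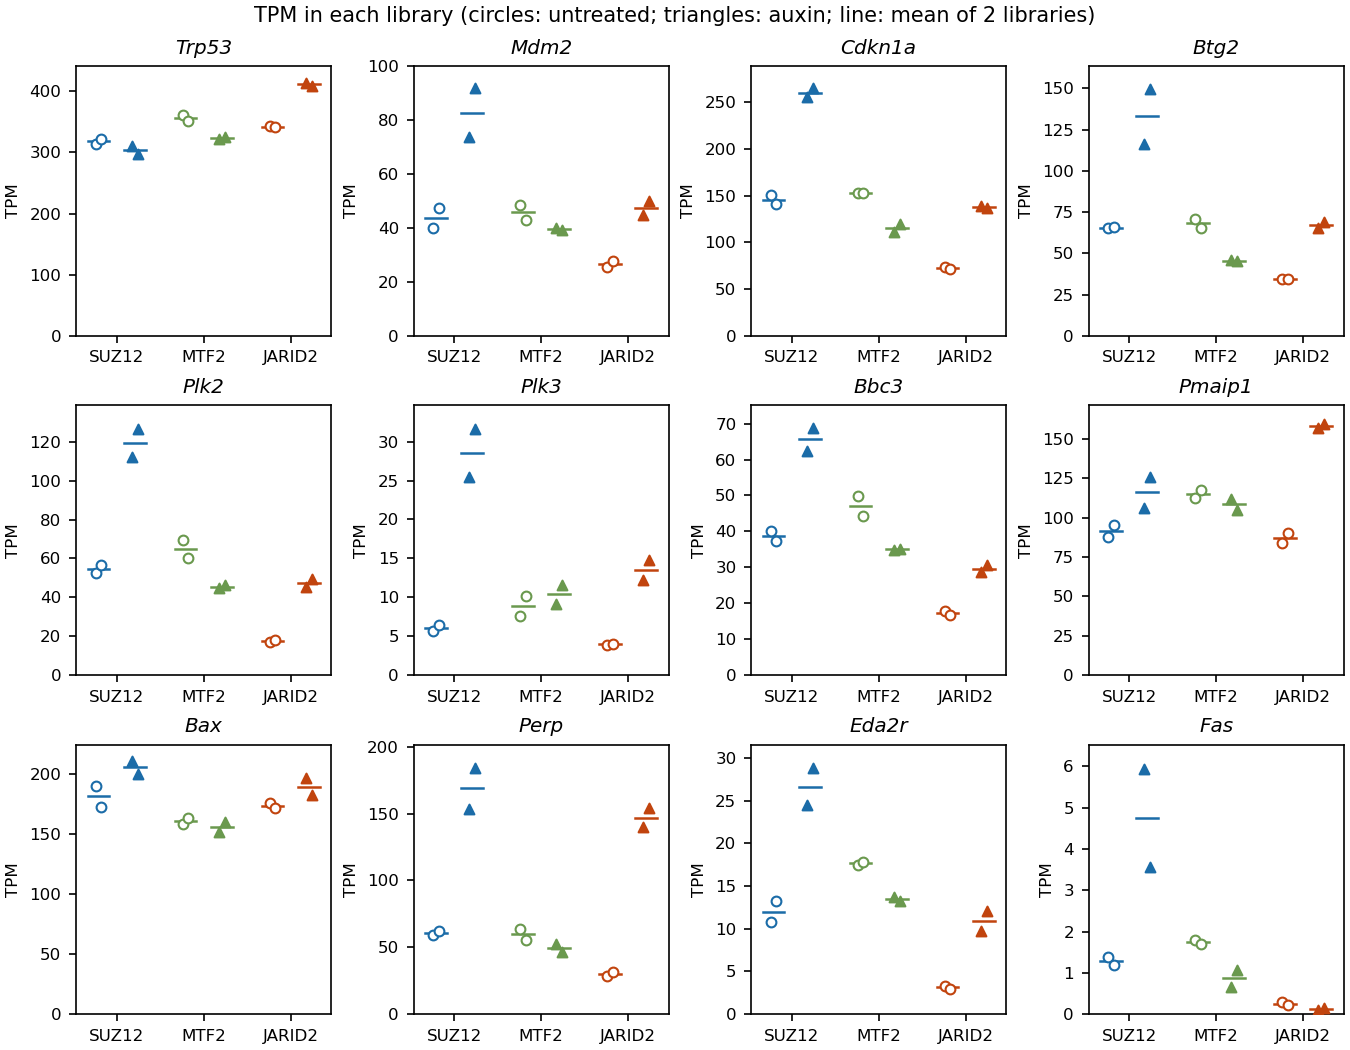
TPM (y axis, linear from 0) of 12 of the genes in each library, with open circles for untreated and filled triangles for auxin libraries and a line at the mean of 2. Cdkn1a, Btg2, Plk2, Plk3, Bbc3, Perp and Eda2r are higher with auxin in SUZ12 and JARID2 lines, while Bax differs little and Fas is above 2 TPM only in the SUZ12 line with auxin.

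Btg2, an antiproliferative partner of the mRNA deadenylase complex, had 65.4 and 65.7 TPM untreated and 117 and 149.9 TPM with auxin in SUZ12-AID (log2 fold change 1.0, SE 0.10, adjusted p = 0.000215). In AID-JARID2 its levels were 34.2 and 34.3 TPM untreated and 65.3 and 68.9 TPM with auxin (log2 fold change 0.95, SE 0.10, adjusted p = 5.02e-05). Each rise was close to 2-fold with separate groups, and the MTF2-AID values of 70.9 and 65.5 TPM untreated and 45.8 and 45.3 TPM with auxin lay the other way (log2 fold change -0.57, SE 0.10, adjusted p = 0.0855; 0.0223 and 0.0228 without either auxin library of SUZ12-AID). Plk2 and Plk3 encode polo-like kinases that respond to stress and DNA damage, unlike the mitotic kinase PLK1. Plk2 had 52.5 and 56.5 TPM untreated and 112 and 127 TPM with auxin in SUZ12-AID (log2 fold change 1.11, SE 0.092, adjusted p = 8.32e-05), and 16.8 and 18.2 TPM untreated and 45.4 and 49.4 TPM with auxin in AID-JARID2 (log2 fold change 1.39, SE 0.092, adjusted p = 1.82e-06). Plk3 went from 5.68 and 6.38 to 25.5 and 31.6 TPM in SUZ12-AID (4.19-fold, adjusted p = 8.32e-05) and from 3.89 and 3.99 to 12.2 and 14.8 TPM in AID-JARID2 (2.93-fold, adjusted p = 6.69e-05). It had the largest log2 fold change of the 33 genes in SUZ12-AID. In MTF2-AID Plk2 had 69.3 and 60.1 TPM untreated and 44.9 and 46.1 TPM with auxin (adjusted p = 0.0888) and Plk3 7.63 and 10.2 TPM untreated and 9.11 and 11.6 TPM with auxin (adjusted p = 0.793), so only Plk2 had separate groups there.

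Gadd45a and Gadd45b are related small proteins that bind stress kinases and cell cycle regulators, and they parted between the lines. Gadd45a had 23.5 and 17.7 TPM untreated and 40.4 and 43 TPM with auxin in SUZ12-AID (log2 fold change 1.0, SE 0.15, adjusted p = 0.00181) and 7.71 and 8.64 TPM untreated and 22.2 and 21 TPM with auxin in AID-JARID2 (log2 fold change 1.30, SE 0.15, adjusted p = 0.000108). It thus rose in both. Gadd45b, which is better known as a target of stress signalling through NF-kB and TGF-beta, had 5.65 and 3.3 TPM untreated and 18 and 21.7 TPM with auxin in SUZ12-AID (log2 fold change 1.96, SE 0.25, adjusted p = 0.000624). In AID-JARID2 it had 8.52 and 7.16 TPM untreated and 10.7 and 11.9 TPM with auxin, again with separate groups but short of the threshold (log2 fold change 0.48, SE 0.25, adjusted p = 0.162; adjusted p = 0.0472 with the libraries of that line alone). The effect on Gadd45b was smaller in AID-JARID2 than in SUZ12-AID (log2 difference -1.48, SE 0.35, adjusted p = 0.0122), while that on Gadd45a did not pass the same test (log2 difference 0.30, SE 0.22, adjusted p = 0.356).

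Of the 6 mitochondrial and nuclear death effectors, 4 rose in each of these lines and 2, Bax and Apaf1, passed in none. Bbc3 encodes PUMA, a BH3-only protein that disables the survival members of the BCL2 family. It had 40.2 and 37.4 TPM untreated and 62.4 and 68.9 TPM with auxin in SUZ12-AID (log2 fold change 0.74, SE 0.085, adjusted p = 0.000379) and 17.8 and 16.7 TPM untreated and 28.6 and 30.6 TPM with auxin in AID-JARID2 (log2 fold change 0.74, SE 0.085, adjusted p = 8.47e-05). The fitted log2 fold changes had the same value although the levels in AID-JARID2 were lower throughout, and those in MTF2-AID were 49.9 and 44.4 TPM untreated and 34.9 and 35.1 TPM with auxin (log2 fold change -0.42, SE 0.085, adjusted p = 0.109). Pmaip1 encodes NOXA, another BH3-only protein, which targets MCL1. It had 87.8 and 95 TPM untreated and 106 and 126 TPM with auxin in SUZ12-AID (log2 fold change 0.34, SE 0.082, adjusted p = 0.017) and 83.7 and 89.9 TPM untreated and 157 and 159 TPM with auxin in AID-JARID2 (log2 fold change 0.86, SE 0.082, adjusted p = 2.4e-05). The groups were separate in both lines, and the SUZ12-AID call was lost without untreated replicate 1 (adjusted p = 0.0648) or auxin replicate 2 (0.133).

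Bax, the pore-forming protein on which PUMA and NOXA converge, had 190.3 and 172 TPM untreated and 211 and 200.0 TPM with auxin in SUZ12-AID (log2 fold change 0.18, SE 0.063, adjusted p = 0.0755). In AID-JARID2 it had 175 and 171 TPM untreated and 197 and 182 TPM with auxin (log2 fold change 0.13, SE 0.063, adjusted p = 0.151). All auxin libraries were somewhat above the untreated ones in both lines, by less than the test could separate. In SUZ12-AID Bax did pass with quantile normalization (adjusted p = 0.0425) and with a replicate block (0.0279). Its log2 fold change there was 0.25 without untreated replicate 1. Apaf1, the scaffold of the apoptosome that activates caspase-9, had 26.4 and 37.1 TPM untreated and 37.8 and 47.3 TPM with auxin in SUZ12-AID (log2 fold change 0.42, SE 0.15, adjusted p = 0.0801). It passed there with quantile normalization (adjusted p = 0.0462) and with a replicate block (0.00963), and its log2 fold change was 0.66 without untreated replicate 2. Aen, a nuclease that cuts DNA and RNA in dying cells, had 74.4 and 86.1 TPM untreated and 98.7 and 97.6 TPM with auxin in SUZ12-AID (log2 fold change 0.29, SE 0.069, adjusted p = 0.0156) and 70.6 and 70.3 TPM untreated and 126 and 118 TPM with auxin in AID-JARID2 (log2 fold change 0.78, SE 0.069, adjusted p = 1.41e-05). Its rise was called in both lines, and in SUZ12-AID it was lost without either auxin replicate (adjusted p = 0.0601 and 0.0742). Ei24, an endoplasmic reticulum protein, rose 1.46-fold in SUZ12-AID (adjusted p = 0.000711) and 1.27-fold in AID-JARID2 (adjusted p = 0.00389).

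All 5 death receptors and membrane or survival signalling genes rose in SUZ12-AID and 4 of them in AID-JARID2. Perp, a p53 target that encodes a desmosome protein of epithelia, changed most of the 33 genes in AID-JARID2, with 28.3 and 31.7 TPM untreated and 140.1 and 154 TPM with auxin (4.78-fold, log2 fold change 2.26, SE 0.11, adjusted p = 2.17e-07). In SUZ12-AID it had 59.1 and 62.2 TPM untreated and 153 and 184 TPM with auxin (2.74-fold, log2 fold change 1.46, SE 0.11, adjusted p = 5.93e-05). Auxin levels were similar in the 2 lines and the untreated levels of AID-JARID2 were lower. Since Perp is also expressed by epithelium, the epithelial markers stand beside it: 11 of 12 rose in SUZ12-AID, and in AID-JARID2 8 rose and 3 fell with summed levels of 2336 and 2436 TPM untreated and 2298 and 2426 with auxin. Their part in the rise of Perp was not tested.

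Eda2r, a receptor of the tumour necrosis factor family, had 10.7 and 13.2 TPM untreated and 24.5 and 28.8 TPM with auxin in SUZ12-AID (log2 fold change 1.09, SE 0.14, adjusted p = 0.000624) and 3.32 and 2.95 TPM untreated and 9.69 and 12.1 TPM with auxin in AID-JARID2 (log2 fold change 1.52, SE 0.14, adjusted p = 1.65e-05). It is a well known p53 target, and its auxin levels in AID-JARID2 stayed below most untreated levels of the other lines. Tnfrsf10b, the mouse receptor for the death ligand TRAIL, had 35.3 and 43.8 TPM untreated and 56.4 and 69.3 TPM with auxin in SUZ12-AID (log2 fold change 0.66, SE 0.12, adjusted p = 0.00436) and 25.8 and 24.7 TPM untreated and 46.2 and 46.8 TPM with auxin in AID-JARID2 (log2 fold change 0.86, SE 0.12, adjusted p = 0.00034). The groups of Eda2r and Tnfrsf10b did not overlap in either line. Phlda3, which competes with the survival kinase AKT at membranes, had 247 and 239 TPM untreated and 352 and 341 TPM with auxin in SUZ12-AID (log2 fold change 0.51, SE 0.047, adjusted p = 0.000137) and 109 and 113 TPM untreated and 163 and 161 TPM with auxin in AID-JARID2 (log2 fold change 0.55, SE 0.047, adjusted p = 1.15e-05). In MTF2-AID Phlda3 had 195 and 189 TPM untreated and 151 and 159 TPM with auxin (log2 fold change -0.31, SE 0.047, adjusted p = 0.0635), lower in both auxin libraries and short of the threshold, which it passed without either untreated library of SUZ12-AID (adjusted p = 0.0287 and 0.0284).

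Fas, the receptor through which cytotoxic cells and p53 start the extrinsic death pathway, was rare in these cells. It had 1.38 and 1.18 TPM untreated and 5.93 and 3.55 TPM with auxin in SUZ12-AID (log2 fold change 1.30, SE 0.21, adjusted p = 0.00255), from 20 and 15 reads untreated and 68 and 31 with auxin. In AID-JARID2 only 3 and 2 reads untreated and 1 and 2 with auxin were counted, so no fold is given for that line. MTF2-AID had 1.8 and 1.71 TPM untreated and 0.668 and 1.07 TPM with auxin (log2 fold change -0.57, SE 0.21, adjusted p = 0.425), from 14 and 14 and 6 and 10 reads. Fas thus rose in SUZ12-AID, and a change in AID-JARID2 was not detectable at this depth.

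Among 5 stress, lysosome and detoxification genes, the 2 sestrins went different ways in AID-JARID2. Sestrins restrain the growth kinase mTORC1 and limit oxidants. Sesn2 had 74.6 and 73.9 TPM untreated and 151 and 155 TPM with auxin in AID-JARID2 (2.05-fold, log2 fold change 1.03, SE 0.087, adjusted p = 1.08e-05). Sesn1 had 17.4 and 19.1 TPM untreated and 11.5 and 12.3 TPM with auxin there (0.669-fold, log2 fold change -0.58, SE 0.14, adjusted p = 0.00908). Neither pair of groups overlapped, one being higher and the other lower with auxin, and the fall of Sesn1 was lost without untreated replicate 2 (adjusted p = 0.0647) or auxin replicate 1 (0.0602). In SUZ12-AID Sesn2 had 111 and 132 TPM untreated and 152 and 175 TPM with auxin (log2 fold change 0.43, SE 0.087, adjusted p = 0.00772; 0.0745 without auxin replicate 2), and Sesn1, with overlapping groups, had 16.5 and 21.3 TPM untreated and 15.5 and 19.5 TPM with auxin (log2 fold change -0.11, SE 0.14, adjusted p = 0.67). Sesn2 is known as a target of ATF4 in the integrated stress response as well as of p53.

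Ephx1, the microsomal epoxide hydrolase, had 8.39 and 8.63 TPM untreated and 17.8 and 25 TPM with auxin in SUZ12-AID (log2 fold change 1.22, SE 0.21, adjusted p = 0.0033) and 1.99 and 1.86 TPM untreated and 5.31 and 5.62 TPM with auxin in AID-JARID2 (log2 fold change 1.14, SE 0.21, adjusted p = 0.00195). It more than doubled in both lines from unequal starting levels. Gdf15, a secreted stress cytokine, had 1.25 and 1.54 TPM untreated and 3.17 and 4.32 TPM with auxin in SUZ12-AID (log2 fold change 0.98, SE 0.18, adjusted p = 0.00518; 0.0507 without auxin replicate 2), from 13 to 27 reads a library. In AID-JARID2 it had 0.548 and 0.307 TPM untreated and 1.14 and 0.978 TPM with auxin from 4 and 2 reads untreated and 9 and 9 with auxin (log2 fold change 0.53, SE 0.18, adjusted p = 0.0475). That call was lost in 11 of 20 settings, among them the removal of any library of AID-JARID2 (adjusted p = 0.0689 to 0.236) or of MTF2-AID (0.0515 to 0.0636). Dram1, a lysosomal protein of autophagy, had 0.0841 and 0.241 TPM untreated and 1.33 and 1.96 TPM with auxin in SUZ12-AID, from 2 and 5 reads untreated and 25 and 28 with auxin. The log2 fold change was 1.18 (SE 0.26, adjusted p = 0.0112), and 1.01 without auxin replicate 2. Dram1 was kept for testing only through these auxin libraries, so its direction was fixed by the filter and the p-value carries no weight. In AID-JARID2 it had 0.18 and 0.941 TPM untreated and 0.829 and 0.618 TPM with auxin, with overlapping groups (adjusted p = 0.634).

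The 7 genes of DNA repair, nucleotide supply and RNA binding had the smallest median changes of the 6 roles. Their median log2 fold change was 0.21 in SUZ12-AID, 0.23 in AID-JARID2 and -0.01 in MTF2-AID, with 2, 3 and 0 genes higher and 0, 2 and 0 lower. Over all genes 15.1%, 19.5% and 0.0447% were higher and 4.05%, 17% and 0.0192% lower, so with 7 genes these counts say little about the role. The genes that fell in AID-JARID2 were Xpc and Ddb2, which encode the proteins that recognise damage in global nucleotide excision repair. Ddb2 had 31.3 and 27.9 TPM untreated and 23 and 21.7 TPM with auxin (log2 fold change -0.39, SE 0.11, adjusted p = 0.0167), and Xpc had 27.3 and 32 TPM untreated and 23.1 and 24.4 TPM with auxin (log2 fold change -0.30, SE 0.10, adjusted p = 0.0372). Auxin libraries lay below untreated ones for both, by a small margin. Ddb2 was lost without untreated replicate 1 (adjusted p = 0.126) or auxin replicate 2 (0.104), and Xpc without untreated replicate 2 or either auxin replicate (0.09 to 0.261) or either auxin replicate of MTF2-AID (0.0531 to 0.0532). In SUZ12-AID Ddb2 had 27.1 and 25.6 TPM untreated and 26.3 and 21.3 TPM with auxin (adjusted p = 0.394) and Xpc 30.4 and 30.6 TPM untreated and 32.5 and 35.1 TPM with auxin (adjusted p = 0.384).

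Ercc5, the nuclease XPG that cuts beside the lesion in the same pathway, went up instead, with 27.7 and 32.3 TPM untreated and 41.7 and 44.8 TPM with auxin in SUZ12-AID (log2 fold change 0.52, SE 0.090, adjusted p = 0.0035) and 20.7 and 22.5 TPM untreated and 26 and 27 TPM with auxin in AID-JARID2 (log2 fold change 0.29, SE 0.090, adjusted p = 0.0314). The second call was lost without any 1 library of AID-JARID2 (adjusted p = 0.054 to 0.183). Polk, a polymerase that copies past lesions, had 11.6 and 14.5 TPM untreated and 16.6 and 20.4 TPM with auxin in SUZ12-AID (log2 fold change 0.48, SE 0.12, adjusted p = 0.0237), lost without untreated replicate 1 (0.0927) or auxin replicate 2 (0.182). Zmat3, a zinc finger RNA-binding protein that acts on splicing, had 32.5 and 35.2 TPM untreated and 47.3 and 48.1 TPM with auxin in AID-JARID2 (log2 fold change 0.49, SE 0.11, adjusted p = 0.0057). In SUZ12-AID its groups overlapped, with 39.3 and 49.6 TPM untreated and 48.5 and 53.8 TPM with auxin (log2 fold change 0.21, SE 0.11, adjusted p = 0.23; 0.0227 without untreated replicate 2). Rps27l, a ribosomal protein close in sequence to Rps27, so that reads may be shared, had 243 and 234 TPM untreated and 279 and 280.0 TPM with auxin in AID-JARID2 (log2 fold change 0.23, SE 0.064, adjusted p = 0.0176; 0.0759 to 0.104 without untreated replicate 2 or either auxin replicate). It passed in SUZ12-AID without untreated replicate 1 (adjusted p = 0.00431), beside 0.15 with all libraries. Rrm2b, the p53-induced ribonucleotide reductase subunit, stayed between 1.26 and 3.13 TPM in all libraries and passed in no line.

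The lines also differed before treatment, and the comparisons below share the untreated libraries with those above. Untreated AID-JARID2 cells held less RNA of most of these genes than the other untreated lines. Against SUZ12-AID 0 of the 33 genes were higher and 19 lower (15.2% and 12.4% of all genes), and against MTF2-AID 1 was higher and 24 lower (15.8% and 17.6%). SUZ12-AID against MTF2-AID had 1 higher, Phlda3, and 4 lower (3.15% and 5.5%), namely Trp53, Pmaip1, Eda2r and Gdf15. This last count was 12 in all without untreated replicate 2 of SUZ12-AID and 1 without its untreated replicate 1 or either untreated replicate of MTF2-AID.

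**Figure D3:**
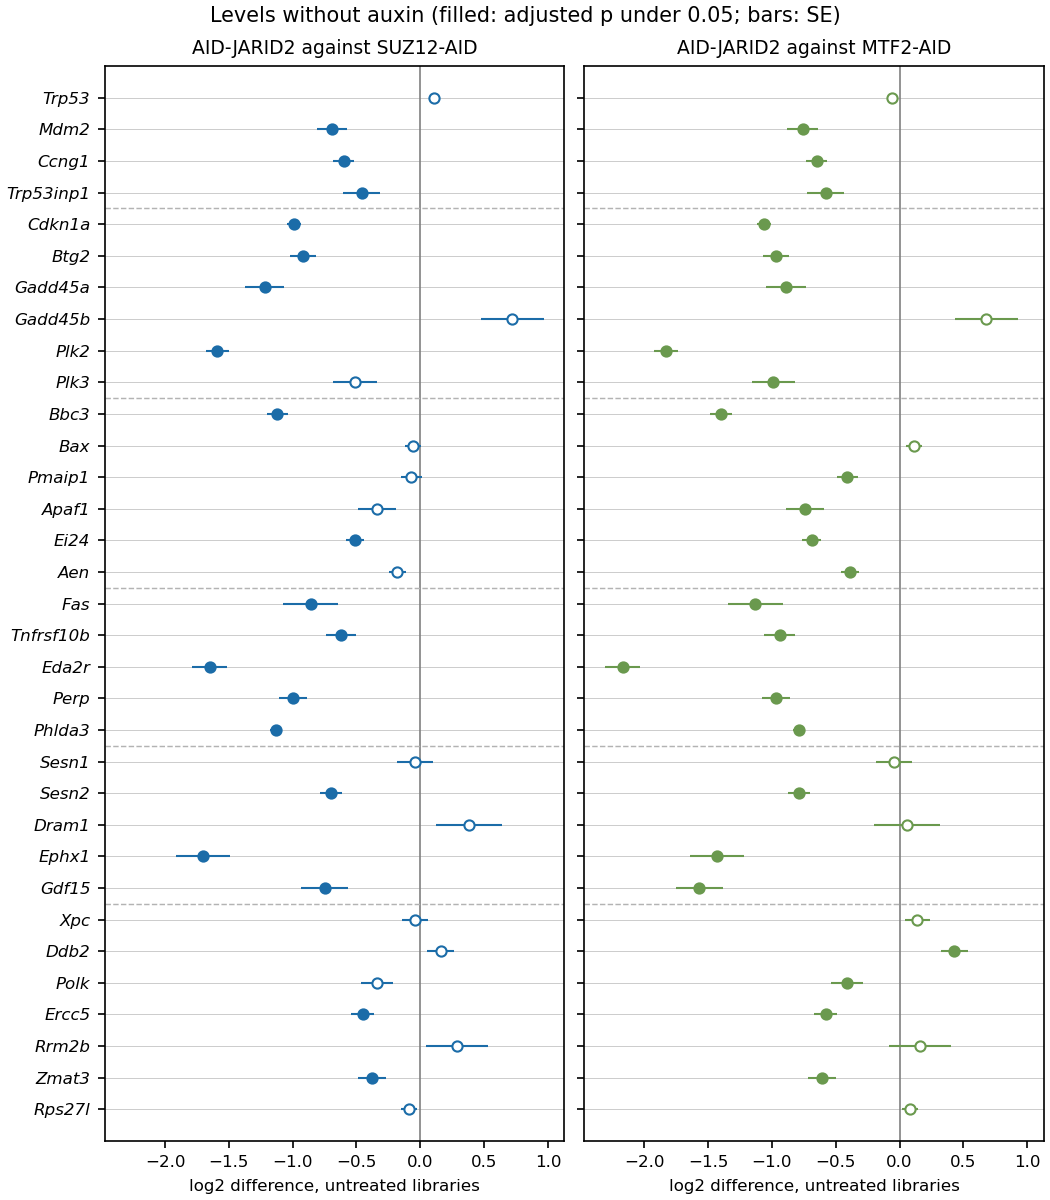
Log2 difference (x axis, log2 of TPM + 1) of each of the 33 genes between untreated AID-JARID2 and untreated SUZ12-AID (left) or MTF2-AID (right), with bars for the SE and filled points for an adjusted p under 0.05. Filled points lie to the left of 0 for 19 genes in the left panel and for 24 in the right one, where Ddb2 alone lies to the right.

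The distances were large for several targets with the strongest rises. Untreated Plk2 had 16.8 and 18.2 TPM in AID-JARID2, 52.5 and 56.5 in SUZ12-AID and 69.3 and 60.1 in MTF2-AID (log2 difference -1.59, SE 0.092, adjusted p = 2.12e-06 against SUZ12-AID). Eda2r had 3.32 and 2.95, 10.7 and 13.2 and 17.5 and 17.8 TPM in the same order (log2 difference -1.65, SE 0.14, adjusted p = 2.16e-05 against SUZ12-AID). Ephx1 had 1.99 and 1.86, 8.39 and 8.63 and 7.82 and 6.07 TPM (log2 difference -1.70, SE 0.21, adjusted p = 0.000261). AID-JARID2 was the lowest of the 3 lines in each case with no overlap. Bbc3 (-1.12), Phlda3 (-1.13), Perp (-1.0), Cdkn1a (-0.99) and Btg2 (-0.92) were lower by similar log2 differences from SUZ12-AID, all with an adjusted p under 0.05. Trp53 RNA, in contrast, was 343 and 342 TPM in AID-JARID2 and 314 and 322 TPM in SUZ12-AID (log2 difference 0.11, SE 0.040, adjusted p = 0.0775). Trp53, Bax, Sesn1, Xpc, Rrm2b, Dram1, Rps27l and Gadd45b passed in neither comparison of AID-JARID2 with another untreated line. Untreated endothelial and blood markers were lower in AID-JARID2 too, 9 of 10 and 6 of 8 against SUZ12-AID, with endothelial sums of 97.4 and 87.2 TPM beside 206 and 217, and so were integrated stress response genes, 12 of 14 against SUZ12-AID and 9 of 14 against MTF2-AID. The part of these genes in those differences was not tested.

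Whether the effect of auxin differed between lines was tested as a difference of the 2 effects. SUZ12-AID differed from MTF2-AID for 21 of the 33 genes, with the larger log2 fold change in SUZ12-AID each time (11.1% of all genes differed). AID-JARID2 differed from MTF2-AID for 24 genes (24.3%), 22 with the larger value in AID-JARID2 and 2, Sesn1 and Ddb2, with the smaller. AID-JARID2 and SUZ12-AID differed for 8 of the 33 genes, where 24% of all genes differed. That count is near the share over all genes, so it says little about these genes as a list. The effect was larger in AID-JARID2 for Perp (log2 difference 0.80, SE 0.15, adjusted p = 0.0043), Sesn2 (log2 difference 0.61, SE 0.12, adjusted p = 0.00588), Pmaip1 (log2 difference 0.52, SE 0.12, adjusted p = 0.00931), Aen (log2 difference 0.49, SE 0.097, adjusted p = 0.00514) and Trp53 (log2 difference 0.33, SE 0.056, adjusted p = 0.00204). It was smaller for Gadd45b and Xpc (log2 difference -0.45, SE 0.14, adjusted p = 0.0447), the latter of which was lost in 14 of 21 settings. The eighth was Fas, where the 1 to 3 reads in each AID-JARID2 library do not resolve an effect in that line, so no direction is read from it. For Cdkn1a the log2 fold changes of SUZ12-AID and AID-JARID2 differed by 0.08 (SE 0.077), for Mdm2 by -0.09, for Btg2 by -0.05 and for Bbc3 by 0.00, none of which passed. Of the calls against MTF2-AID, those of Pmaip1, Sesn2, Gadd45b and Ephx1 for SUZ12-AID were lost in 13, 9, 9 and 3 of 21 settings. For AID-JARID2 those of Sesn1, Ddb2, Ercc5 and Zmat3 were lost in 10, 11, 8 and 1 of 21, and that of Gdf15 in 6 of 20.

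Other genes of the p53 and death pathways, 153 tested in 9 lists, moved less uniformly. In SUZ12-AID 43 rose and 16 fell (15.1% and 4.05% of all genes), and in AID-JARID2 47 rose and 28 fell (19.5% and 17%), so the falls in AID-JARID2 were near the share over all genes. The same shares over all genes apply to the lists that follow. In MTF2-AID 0 passed with limma in either direction, and 7 were higher and 18 lower at an unadjusted p under 0.05. Among 30 further p53 targets 16 rose and 0 fell in SUZ12-AID (median log2 fold change 0.33), 12 rose and 3 fell in AID-JARID2 (0.21), and 0 passed in MTF2-AID (-0.1; 1 higher and 7 lower unadjusted). Tap1, a peptide transporter of antigen presentation, had 21.4 ± 1.02 TPM untreated and 55.7 ± 7.07 with auxin in SUZ12-AID (SD, n = 2; adjusted p = 0.000149 by limma). Thbs1, the matrix protein thrombospondin 1, rose in both lines, 2.1-fold in SUZ12-AID (adjusted p = 0.00518) and 3.27-fold in AID-JARID2 (adjusted p = 0.000112). Kitl, the ligand of the receptor KIT, fell in AID-JARID2 (0.287-fold, adjusted p = 0.000124).

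Of 20 regulators of p53, 2 rose and 0 fell in SUZ12-AID and 2 rose and 2 fell in AID-JARID2, all below the shares over all genes. Cdkn2a encodes p16 and ARF, the latter an inhibitor of MDM2, and is a classic Polycomb target. It had 5.59 and 7.49 TPM untreated and 88.6 and 81.1 TPM with auxin in SUZ12-AID (11.5-fold, log2 fold change 3.52, SE 0.18, adjusted p = 1.32e-05), and the table gives 1 value for both products. In AID-JARID2 Cdkn2a had 2.2 and 2.09 TPM untreated and 3.91 and 2.69 TPM with auxin (log2 fold change 0.44, SE 0.18, adjusted p = 0.0813), and in MTF2-AID 12.4 and 12.2 TPM untreated and 10.2 and 7.74 TPM with auxin (log2 fold change -0.43, SE 0.18, adjusted p = 0.466). Cdkn2a thus rose in SUZ12-AID, where Trp53 did not pass, and stayed low in AID-JARID2, where Trp53 rose. Trp73, a relative of p53 that can act on shared targets, had 1.34 and 1 TPM untreated and 6.95 and 7.26 TPM with auxin in AID-JARID2 (log2 fold change 1.90, SE 0.21, adjusted p = 6.41e-05). In SUZ12-AID Trp73 had 1.91 and 2.82 TPM untreated and 3.34 and 5.27 TPM with auxin (log2 fold change 0.65, SE 0.21, adjusted p = 0.0564). Ppp1r13l, which encodes the p53 inhibitor iASPP, rose 1.73-fold in SUZ12-AID (adjusted p = 0.00355). Ppm1d, a phosphatase that turns the damage response off, fell in AID-JARID2 (0.751-fold, adjusted p = 0.0043).

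**Figure D4:**
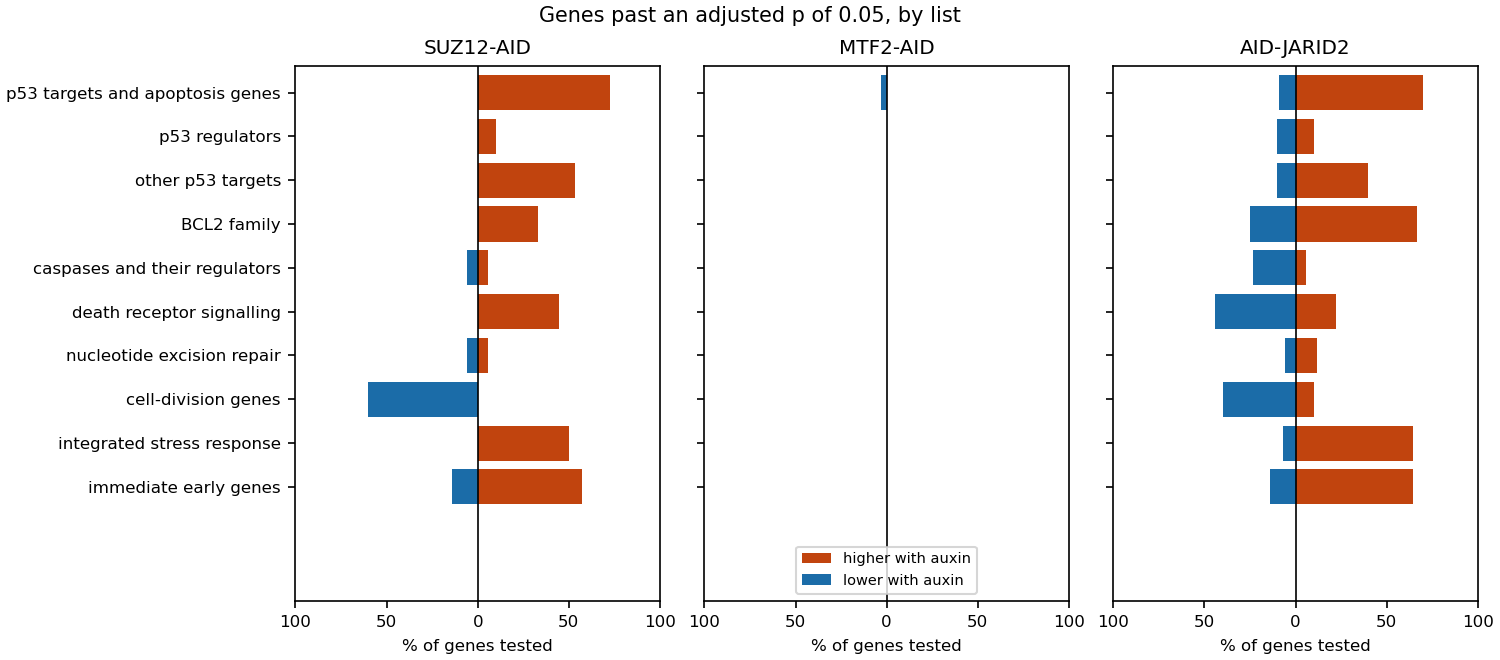
Share of genes tested (x axis, %) that were higher (right, red) or lower (left, blue) with auxin at an adjusted p under 0.05, for the 33 p53 targets and apoptosis genes and 9 other lists, in each line. The 33 genes have the longest bar to the right in SUZ12-AID and AID-JARID2, cell-division genes have 12 and 8 of 20 lower and 0 and 2 higher, and MTF2-AID shows 1 gene.

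Downstream of these genes, the BCL2 family had 4 of 12 genes higher and 0 lower in SUZ12-AID, and 8 higher and 3 lower in AID-JARID2. Bcl2l11, which encodes the BH3-only protein BIM, had 9.63 and 8.86 TPM untreated and 24.8 and 26.5 TPM with auxin in AID-JARID2 (log2 fold change 1.38, SE 0.11, adjusted p = 7.86e-06). The survival gene Bcl2 also rose there (1.88-fold, adjusted p = 0.0012), as did Bcl2l1, which encodes BCL-XL, in SUZ12-AID (1.35-fold, adjusted p = 0.00296), so killers and protectors were both among the genes that rose. Caspases and their regulators had 1 of 17 higher and 1 lower in SUZ12-AID and 1 higher and 4 lower in AID-JARID2 (19.5% and 17% of all genes), where Casp9 fell (0.782-fold, adjusted p = 0.0145). Of 9 death receptor signalling genes 4 rose and 0 fell in SUZ12-AID, and 2 rose and 4 fell in AID-JARID2. Tnfrsf12a, the receptor of TWEAK, rose 2-fold and 4.01-fold (adjusted p = 0.000297 and 4.86e-07). The adaptor gene Tradd fell in AID-JARID2 (0.529-fold, adjusted p = 0.000568). Ltbr went different ways, up in SUZ12-AID (1.51-fold, adjusted p = 0.00152) and down in AID-JARID2 (0.525-fold, adjusted p = 2.48e-05). Of 17 other nucleotide excision repair genes 1 rose and 1 fell in SUZ12-AID, and 2 rose and 1 fell in AID-JARID2, with the rises in both lines below the shares over all genes.

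Cell-division genes, which p21 lowers through the DREAM repressor complex, fell in part. In SUZ12-AID 12 of 20 fell and 0 rose (4.05% and 15.1% of all genes), with a median log2 fold change of -0.27. In AID-JARID2 8 fell, 2 rose (Cdc25b and Mcm2, named after their values were seen) and 10 did not pass (17% of all genes fell and 19.5% rose), with a median of -0.07. Top2a, the topoisomerase of dividing cells, had 391 and 475 TPM untreated and 344 and 336 TPM with auxin in SUZ12-AID (log2 fold change -0.34, SE 0.083, adjusted p = 0.0181). Mki67, the proliferation marker, had 164 and 181 TPM untreated and 114 and 126 TPM with auxin in AID-JARID2 (log2 fold change -0.52, SE 0.17, adjusted p = 0.0353). Both genes were lower in both auxin libraries. Untreated AID-JARID2 cells had more RNA than untreated SUZ12-AID for 9 of 20, with 1 lower (15.2% and 12.4% of all genes). Against untreated MTF2-AID 14 were higher and 0 lower (15.8% and 17.6%). The part of p21 in the levels of these genes was not tested.

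Many stress genes with other controllers rose beside the p53 targets, and a few fell. Of 14 integrated stress response genes 7 rose and 0 fell in SUZ12-AID and 9 rose and 1 fell in AID-JARID2. Trib3, a pseudokinase induced by ATF4 and CHOP, had 26 and 24.3 TPM untreated and 52.3 and 51.9 TPM with auxin in SUZ12-AID (log2 fold change 1.02, SE 0.15, adjusted p = 0.00122) and 12.1 and 8.63 TPM untreated and 33.9 and 34 TPM with auxin in AID-JARID2 (log2 fold change 1.64, SE 0.15, adjusted p = 1.53e-05). It was higher in every auxin library of both lines. Atf3 rose 2.51-fold in SUZ12-AID (adjusted p = 0.000959) and Chac1 3.74-fold in AID-JARID2 (adjusted p = 1.11e-05). Vldlr was the 1 that fell in AID-JARID2 (0.319-fold, adjusted p = 5.68e-06). Of 14 immediate early genes tested, 8 rose and 2 fell in SUZ12-AID and 9 rose and 2 fell in AID-JARID2, with Fosl1 up 3.44-fold and 7.27-fold (adjusted p = 0.000271 and 1.85e-06). Among them Klf4 rose 1.92-fold in SUZ12-AID and fell in AID-JARID2 (0.292-fold, adjusted p = 0.00475 and 2.98e-05). Since Sesn2, Gdf15, Gadd45a and Gadd45b are known to respond to these pathways too, the part of those pathways in the rises of these 4 genes was not tested.

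Genes with and without an exact decamer in the promoter window were among those that rose. Of the 11 genes with one, 7 rose in SUZ12-AID and 8 rose and 1, Sesn1, fell in AID-JARID2. Of the 14 genes with a window and no exact decamer, 13 rose in SUZ12-AID and 10 in AID-JARID2. Over all genes 15.1% rose in SUZ12-AID, and 19.5% rose and 17% fell in AID-JARID2. No window was matched for Perp, Pmaip1 and 6 other genes, and TPM values are per gene and not per promoter. Pmaip1 lies on chromosome 18, whose windows were not matched to these genes.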

How the data were processed

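The authors deposited 1 table of TPM values for 35856 gene symbols in 12 libraries of stranded, poly(A)-selected RNA-seq. Reads were aligned with STAR 2.6.1d and mm10 was the genome build, per the submitters' processing notes. Which program and gene annotation produced the TPM is not given in the sources used here. Columns were matched to groups by name and 0 were left unused. Low values stepped in whole reads (100% of values above 0 within 0.001 reads), which gave 10138920 to 17173072 reads per library.

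The 15663 genes that reached 1 TPM or more in 2 libraries or more were fitted as log2(TPM + 1) with limma 3.58.1 in R 4.3.3 (1 term per group, all 12 libraries, eBayes with a trend, 6 residual degrees of freedom and 3.9 from the prior). All tests were two-sided, with Benjamini-Hochberg adjustment over all genes kept and a threshold of 0.05. No count test was run, since TPM values are not counts.

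The 33 genes and the other lists were chosen with earlier results of these data known. All 33 are named. Of each other list up to 3 genes a line are named: those that passed, with separate groups, at least 5 TPM in the higher group and the largest log2 fold change. The values of such genes in other lines were added after they were seen. Positions come from GENCODE vM21 on mm10 and promoters from RefSeq (GRCm38.p6). There were 21 alternatives: pseudocounts, filters, scalings, the libraries of the compared lines alone, a variance weight per line, a replicate block, and leaving out each library.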

Additional observations from a re-analysis of the deposited data

Results flagged for a closer look

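The effect of auxin on 53 combinations of a gene and a pair of lines differed between the lines in the limma test of the difference itself (adjusted p under 0.05). There were 21 for SUZ12-AID minus MTF2-AID, 8 for AID-JARID2 minus SUZ12-AID and 24 for AID-JARID2 minus MTF2-AID. Over all genes 11.1%, 24% and 24.3% differed in the same order, so the 8 are near that share. Calls that were lost in other settings are named in the Results and are listed here with the rest. Values are differences between the log2 fold changes of the 2 lines named, positive where the first line has the larger one, and each line has its own untreated libraries. The lines are compared in pairs, so a gene can appear more than once.

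For SUZ12-AID minus MTF2-AID, the differences among regulators of p53 were 1.11 for Mdm2, 0.85 for Ccng1 and 1.13 for Trp53inp1. Among arrest genes they were 1.24 for Cdkn1a, 1.57 for Btg2, 1.59 for Gadd45a, 1.46 for Gadd45b, 1.61 for Plk2 and 1.86 for Plk3. Among death effectors they were 1.16 for Bbc3, 0.43 for Pmaip1 and 0.75 for Ei24. Among receptor and membrane genes they were 1.87 for Fas, 0.91 for Tnfrsf10b, 1.46 for Eda2r, 1.71 for Perp and 0.82 for Phlda3. Among stress genes they were 0.50 for Sesn2, 1.42 for Ephx1 and 1.39 for Gdf15. Among repair and RNA-binding genes it was 0.66 for Ercc5.

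For AID-JARID2 minus SUZ12-AID, the difference was 0.33 for Trp53 among regulators of p53. Among arrest genes it was -1.48 for Gadd45b. Among death effectors they were 0.52 for Pmaip1 and 0.49 for Aen. Among receptor and membrane genes they were -1.47 for Fas and 0.80 for Perp. Among stress genes it was 0.61 for Sesn2. Among repair and RNA-binding genes it was -0.45 for Xpc.

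For AID-JARID2 minus MTF2-AID, the differences among regulators of p53 were 0.40 for Trp53, 1.02 for Mdm2, 1.07 for Ccng1 and 0.95 for Trp53inp1. Among arrest genes they were 1.32 for Cdkn1a, 1.52 for Btg2, 1.89 for Gadd45a, 1.88 for Plk2 and 1.35 for Plk3. Among death effectors they were 1.16 for Bbc3, 0.95 for Pmaip1, 0.54 for Ei24 and 0.82 for Aen. Among receptor and membrane genes they were 1.11 for Tnfrsf10b, 1.89 for Eda2r, 2.51 for Perp and 0.85 for Phlda3. Among stress genes they were -0.62 for Sesn1, 1.10 for Sesn2, 1.35 for Ephx1 and 0.94 for Gdf15. Among repair and RNA-binding genes they were -0.47 for Ddb2, 0.43 for Ercc5 and 0.65 for Zmat3.

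Fas in AID-JARID2 rests on 1 to 3 reads a library, so its differences from that line carry little information on AID-JARID2. Every gene with a difference between SUZ12-AID and MTF2-AID has a positive one, and those between AID-JARID2 and MTF2-AID are positive except for Sesn1 and Ddb2.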

How the results depend on the processing

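No called fold change turned its direction in any of the 21 alternatives. The number of the 33 genes higher in SUZ12-AID was 24, and 4 with the libraries of that line alone; it was 18 to 26 when 1 library was left out. SUZ12-AID replicates varied more (variance weights of 0.5, 1.29 and 1.54 for SUZ12-AID, MTF2-AID and AID-JARID2), and 4 of its 24 calls, 20 of 26 in AID-JARID2 and 0 of 1 in MTF2-AID held in every alternative. Of the untreated AID-JARID2 calls, 15 of 19 against SUZ12-AID and 22 of 25 against MTF2-AID did. Leaving out a library gave 20 to 23 higher and 1 to 3 lower in AID-JARID2 (1 lower without untreated replicate 2 or either auxin replicate of that line). The number lower in MTF2-AID, 1 in the fit described, was 0 with a pseudocount of 0.1, 0 with median-of-ratios scaling, 0 with its libraries alone and 0 with the replicate block, 2 with a pseudocount of 5, 2 with a mean of at least 5 TPM, 2 with quantile normalization, 5 with a variance weight per line (Cdkn1a, Bbc3, Phlda3, Btg2 and Plk2), and 0 to 2 without 1 library. Untreated SUZ12-AID against MTF2-AID, 5 genes, had 3 with no filter, 1 with the libraries of those lines alone, 2 with the variance weight, 9 with the replicate block, and 1 to 12 without 1 library. The replicate numbers did not pair the libraries (correlation of same-numbered deviations 0.096, -0.039 and 0.008 in the 3 lines), and the block moved no other count by more than 1.5 times. Counts of genes whose effect differed between lines ranged from 17 to 25, 7 to 11 and 20 to 26 for SUZ12-AID minus MTF2-AID, AID-JARID2 minus SUZ12-AID and AID-JARID2 minus MTF2-AID. Scaling moved the median auxin effect of all genes in each line by 0.1 or less (0.06 to -0.04 in SUZ12-AID). The median difference of AID-JARID2 minus SUZ12-AID went from -0.07 to 0.04 with quantile normalization. A fit with 1 library in a group takes it to vary like the other groups, and the cause of the changes was not tested. With 2 libraries a group and under 30 reads for Gdf15 and Dram1, small changes could not be resolved.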
